A study of Arabidopsis thaliana with 2 samples.

Results

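The genes AT1G56385, AT3G57840, AT5G04047 and AT3G17080 encode small proteins that the annotation names plant self-incompatibility protein S1 family. All 4 were found among the 33557 identifiers with values in the deposited expression table. They were picked by identifier because their transcripts were lower in myb98 ovules than in wild-type ovules while most of the family was not, so their ratios chose them and stand here as a description. The family of the same product names held 68 genes in the reference annotation (TAIR10.1), 66 of them with values.

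RNA was sequenced from mature ovules of Arabidopsis thaliana, with 1 library for each of 2 genotypes. The wild-type library came from unpollinated ovules of ms1, a male-sterile line used in place of true wild-type plants. The myb98 library came from ovules of a mutant in MYB98, which encodes a MYB transcription factor, and the sources used here do not give its allele or the accession background of either line. Per the labels, stage 12 flowers were emasculated and the ovules of about 50 pistils were dissected by hand 36 hours later, so each library pools many ovules. The labels name ms1 for the control alone, so the libraries may differ in more than MYB98. Each library is a single measurement, there is no replicate error, and no difference below has a test.

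S-proteins were first described in field poppy, Papaver rhoeas, where the stigma secretes a small cysteine-containing S-protein that stops pollen of the same S type. Arabidopsis thaliana is self-fertile, its relatives reject own pollen with an unrelated receptor and ligand pair, and the functions of most of its many S-protein homologs are not known. MYB98 acts in the synergids, the cells beside the egg cell that carry the filiform apparatus and secrete the peptides that attract pollen tubes. Published binding sites of MYB98 hold the letters TAAC, and a longer form is GTAACNT.

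The bases just before the transcripts of the 4 genes are shown because those of AT1G56385 and AT3G57840 are largely the same although the genes lie on different chromosomes. Also shown are those of AT3G57850 and AT3G57854, which follow AT3G57840 on chromosome 3. Each stretch is the 220 bases up to the annotated transcript start (RefSeq, TAIR10.1), read along the gene's strand from 5′ to 3′. Capitals mark TAAC on either strand, written GTTA where it lies on the other strand. The models of AT3G57840 and AT3G57850 begin at the start codon, so their stretches can include untranslated sequence that is not annotated.

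AT1G56385 (chr1:21106798-21107017, minus strand): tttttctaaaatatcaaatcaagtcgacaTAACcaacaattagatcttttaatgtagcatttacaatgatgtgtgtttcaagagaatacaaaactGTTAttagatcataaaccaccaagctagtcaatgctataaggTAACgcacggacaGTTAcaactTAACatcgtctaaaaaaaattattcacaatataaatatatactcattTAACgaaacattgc

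AT3G57840 (chr3:21422603-21422822, plus strand): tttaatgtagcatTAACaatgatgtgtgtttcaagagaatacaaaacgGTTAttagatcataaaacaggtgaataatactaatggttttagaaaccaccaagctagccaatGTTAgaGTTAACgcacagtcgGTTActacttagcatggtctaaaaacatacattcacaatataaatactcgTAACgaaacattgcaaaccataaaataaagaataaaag

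AT3G57850 (chr3:21424157-21424376, plus strand): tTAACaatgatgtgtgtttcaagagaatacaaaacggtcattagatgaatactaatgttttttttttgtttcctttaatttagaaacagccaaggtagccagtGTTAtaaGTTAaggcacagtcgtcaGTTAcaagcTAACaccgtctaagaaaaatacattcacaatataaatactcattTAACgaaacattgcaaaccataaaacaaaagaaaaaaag

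AT3G57854 (chr3:21425259-21425478, plus strand): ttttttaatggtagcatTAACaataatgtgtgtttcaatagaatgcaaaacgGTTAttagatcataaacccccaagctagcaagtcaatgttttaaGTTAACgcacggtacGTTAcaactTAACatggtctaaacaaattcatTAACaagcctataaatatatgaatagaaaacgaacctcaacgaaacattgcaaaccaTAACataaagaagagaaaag

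AT5G04047 (chr5:1095703-1095922, minus strand): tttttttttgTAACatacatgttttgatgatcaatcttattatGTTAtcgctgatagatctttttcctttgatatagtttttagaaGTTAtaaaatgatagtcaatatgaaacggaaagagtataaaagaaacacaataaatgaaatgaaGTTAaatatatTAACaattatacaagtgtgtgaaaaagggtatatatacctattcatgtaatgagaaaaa

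AT3G17080 (chr3:5825069-5825288, plus strand): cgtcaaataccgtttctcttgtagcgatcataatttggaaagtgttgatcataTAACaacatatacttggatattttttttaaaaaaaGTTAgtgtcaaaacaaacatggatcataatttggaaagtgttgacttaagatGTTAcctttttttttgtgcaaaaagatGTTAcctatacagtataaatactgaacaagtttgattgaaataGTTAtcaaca

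The stretches of AT1G56385 and AT3G57840 aligned over 166 bases with 89.8% identity. Those of AT1G56385 and AT3G57850 aligned over 157 bases with 89.2% identity, and those of AT3G57840 and AT3G57850 over 204 bases with 85.8%. A run of 32 bases is identical in these 3 genes.

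Shared run: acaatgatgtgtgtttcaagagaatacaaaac

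It starts 158 bases before the transcript of AT1G56385, 205 before that of AT3G57840 and 217 before that of AT3G57850. No other of the 27443 protein-coding genes examined holds it in its 220 bases, the count being 3. The stretches of AT5G04047 and AT3G17080 shared no run longer than 11 bases with each other or with any of the other 4. The 4 homologs therefore fall into a related pair, AT1G56385 and AT3G57840, and 2 genes whose upstream sequences resemble neither.

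AT1G56385 lies on chromosome 1 at 21106245 to 21106797 on the minus strand, with 1 exon, and encodes 152 residues. Its level was 91.2 in wild-type and 4.81 in myb98 ovules, in FPKM (fragments per kilobase of a transcript and per a fixed number of fragments in the library), a unit read from the values since the table's header does not name it. This was 18.9-fold lower, with 5.28% left. By rank among the 24 S1 homologs expressed in these ovules it was number 1 in wild-type and number 19 in myb98 ovules.

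AT3G57840 lies on chromosome 3 at 21422823 to 21423287 on the plus strand, with 1 exon, and encodes 154 residues. Wild-type ovules had 29.5 FPKM of it and myb98 ovules 1.16 FPKM, which was 25.5-fold lower with 3.92% left. The note of the annotation lists synergid, embryo and sepal as places of expression.

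AT5G04047 lies on chromosome 5 at 1095030 to 1095702 on the minus strand and has 2 exons, where the other 3 have 1. It encodes 148 residues. Its values of 47.2 FPKM in wild-type and 4.75 FPKM in myb98 ovules made it 9.94-fold lower, with 10.1% left, the largest remainder of the 4.

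AT3G17080 lies on chromosome 3 at 5825289 to 5825867 on the plus strand, with 1 exon, and encodes 134 residues. From 5.83 FPKM in wild-type ovules, 0.201 FPKM was left in myb98 ovules, 29.0-fold lower and 3.45% of the wild-type value. Synergid is the only place of expression in its note. The lower value corresponds to about 4 fragments by the estimate of depth, so this fold is the least certain of the 4.

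**Figure D1:**
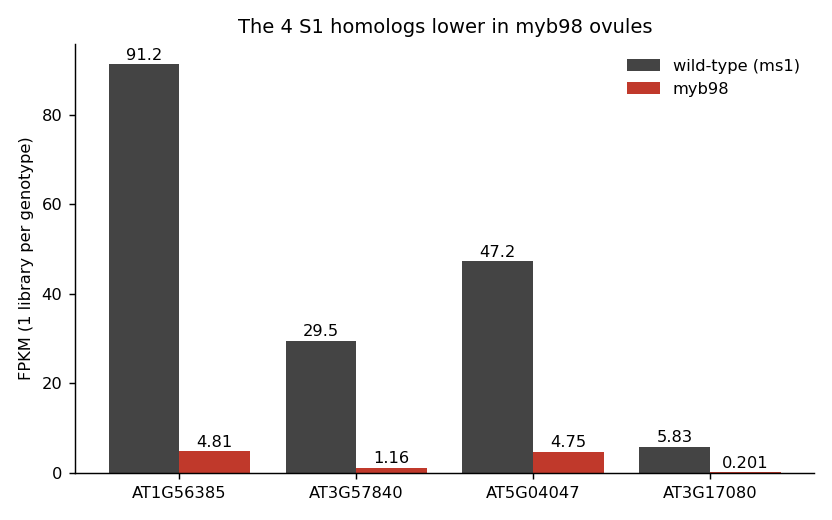
FPKM of the 4 homologs in the wild-type (dark bars) and myb98 (red bars) libraries, 1 library each, on a linear axis from 0. Wild-type values run from 5.83 to 91.2 FPKM and myb98 values from 0.201 to 4.81 FPKM.

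The 4 genes differed in level more than in ratio. In wild-type ovules the order was AT1G56385, AT5G04047, AT3G57840 and AT3G17080, and it was the same in myb98 ovules, where AT1G56385 and AT5G04047 were nearly level at 4.81 and 4.75 FPKM. With no replicate spread, it cannot be said which neighbours in that order differ. The estimated fragments behind the wild-type values were about 1800, 980, 470 and 120 in that order, and those behind the myb98 values about 82, 92, 16 and 4. Summed over the 4, 174 FPKM became 10.9 FPKM, or 6.28%. In whole ovules, fewer cells of a type and less RNA per cell cannot be told apart.

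Log2 ratios were taken of FPKM + 1, and a gene was called expressed if it reached 1 FPKM in at least 1 library. A gene was called lower or higher when its log2 ratio was 2 or more in size, which is a rule of size and not a test. On this scale AT1G56385 was at -3.99, AT3G57840 at -3.82, AT5G04047 at -3.07 and AT3G17080 at -2.51. Over all 16303 expressed genes, 116 (0.712%) were called lower and 46 (0.282%) higher, with a middle range of -0.28 to 0.29. Since the 4 genes were chosen for being lower, nothing is read from their count against that share. On the lower side, AT3G17080 was the family member just inside the rule and AT5G12070, at -0.69, the nearest outside it. On the higher side no member passed, and the nearest was AT3G54925 at 1.8.

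That most of the S1 family did not share this pattern was part of how the 4 were picked, so it is a description too. Of the 66 genes with values, 29 were listed at 0 in both libraries, 13 were above 0 but under 1 FPKM in both, and 24 were expressed. Of these 24, 4 were lower, 0 were higher and 20 did not pass the rule. Among those 20, 17 had a ratio above 0 and 3 below, against 49.6% of all expressed genes above 0. Their ratios ran from -0.69 to 1.8 with a median of 0.95, while the median of all expressed genes was 0.00. The 4 had been taken out of the family by these same ratios, while all expressed genes keep their lower members. With the 4 included, the median of the 24 was 0.90.

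The abundant members outside the 4 were AT1G04645, AT3G55252, AT4G24974 and AT3G24065. AT1G04645 had 34.0 FPKM in wild-type and 69.3 FPKM in myb98 ovules and was there the most abundant S1 homolog. AT3G55252 had 23.6 and 39.4 FPKM, and AT4G24974 had 22.5 and 43.5 FPKM. AT3G24065 was close to level at 15.4 and 14.7 FPKM. AT1G26795, annotated in the same family, had 12.7 and 26.8 FPKM.

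The ratios farthest above 0 were those of AT3G54925 (8.37 and 31.7 FPKM, log2 ratio 1.8), AT4G16195 (0.704 and 4.87 FPKM, 1.78), AT3G55665 (4.95 and 16.7 FPKM, 1.57) and AT2G23142 (3.0 and 8.10 FPKM, 1.18). Exons of AT4G16195, AT3G55665 and AT3G55252 overlap those of another annotated gene, so their reads may be shared with it. Exons of the 4 homologs overlap no annotated gene. The other members below 0 were AT5G12070 (1.0 and 0.241 FPKM), AT4G24975 (3.81 and 2.85 FPKM, log2 ratio -0.32) and AT3G24065 (-0.07). AT5G12070 was 4.15-fold lower as a plain ratio, but at 1.0 FPKM in wild-type ovules it could not have passed the rule.

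**Figure D2:**
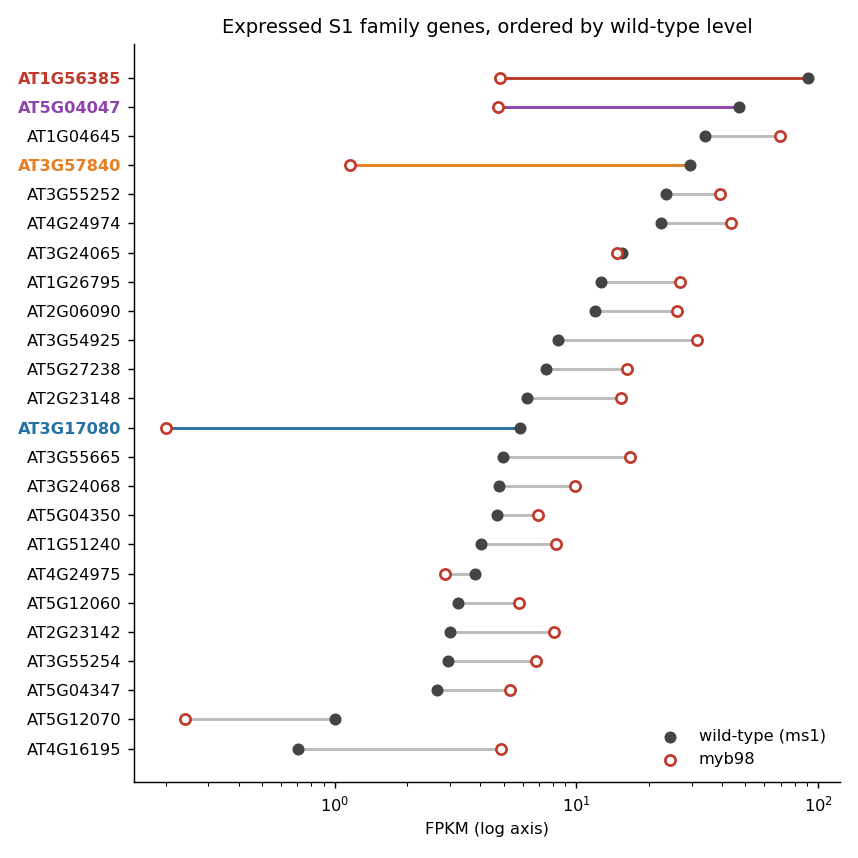
FPKM of the 24 expressed S1 family genes on a log axis, ordered by wild-type level, with filled points for the wild-type library and open points for the myb98 library. The lines of the 4 homologs (coloured names) run to the left, with myb98 values from 0.201 to 4.81 FPKM, and 17 of the other 20 run to the right.

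The summed level of the family was similar in the libraries, at 352 FPKM in wild-type and 370 FPKM in myb98 ovules. The makeup of the sum differed, which follows in part from picking the 4 by these same values, so nothing is read from it. The 4 homologs held 49.4% of the sum in wild-type and 2.95% in myb98 ovules. The other 20 went from 178 to 359 FPKM, 2.01 times as much, in libraries where short transcripts as a class had a median log2 ratio of 0.41.

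Short transcripts as a class had ratios above 0 in this pair of libraries, which bears on the other 20 members. The 679 expressed genes with transcripts of 430 to 700 nt, a range that holds 23 of the 24 S1 genes, had a median log2 ratio of 0.41. A ratio of -1 or below was found for 447 (2.74%) of all expressed genes and 0 of the other 20 members, from which nothing is read because the lower genes had been taken out by these ratios. A ratio of 1 or more was reached by 9 of the other 20, by 105 of those 679 genes (15.5%) and by 481 of all expressed genes (2.95%). The removal of the 4 raises the share of the other 20, and the larger sets keep their lower genes. Set against the running median of genes of its own length, the median of the other 20 was 0.51 and 16 of them stayed above 0, while AT5G12070 was at -1.19. That running median comes from genes that reached 5 FPKM and is taken off in full at low levels too. AT5G12070, at 1.0 and 0.241 FPKM, was at -0.69 before this step. On the same footing the 4 homologs were at -4.39 (AT1G56385), -4.33 (AT3G57840), -3.50 (AT5G04047) and -2.93 (AT3G17080). That the 4 lie opposite to the length trend follows from picking them as lower, so nothing is read from it. Calls of lower were more frequent among the 679 short genes, at 39 (5.74%) against 0.712% of all expressed genes, the 4 homologs included.

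**Figure D3:**
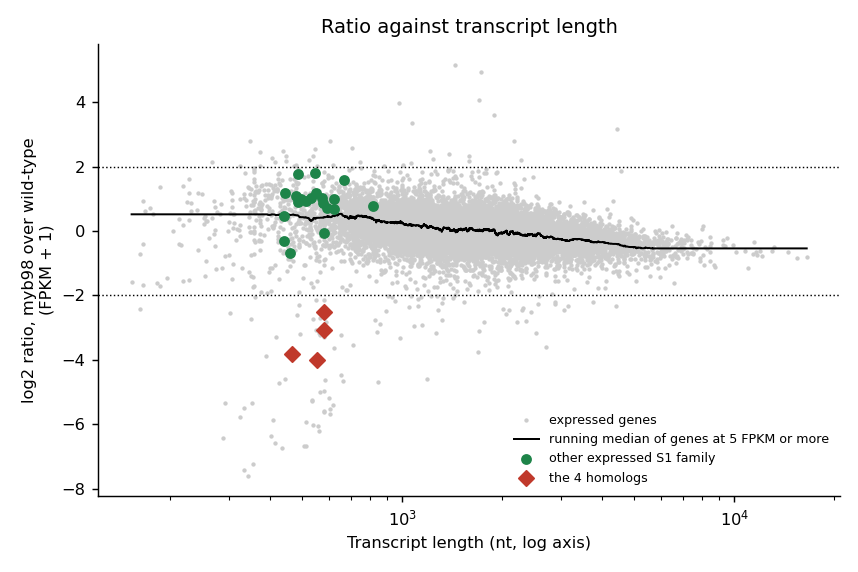
Log2 ratio of FPKM + 1 against transcript length (log axis) for expressed genes, with the running median of genes at 5 FPKM or more (line) and the size rule of 2 (dotted lines). The other 20 expressed S1 genes (green) lie between -0.69 and 1.8 and the 4 homologs (red diamonds) between -3.99 and -2.51.

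Related proteins were compared next, because similar genes can share reads and because relatives differ in their ratio. Lengths of 134 to 154 residues in the 4 proteins lie near the family's median of 140.5. Their 5 to 7 cysteines lie above its median of 4.5. AT1G56385 and AT3G57840 are each other's closest family member, with 58.7% identity over 150 residues, against a median of 28.8% over the 276 pairs of expressed members. That median takes in pairs with short alignments, such as AT3G57840 and AT1G51240 over 3 residues. The other pairs among the 4 had 26.0% to 38.9% identity. The closest relative of AT3G17080 is AT3G16970 (61.7%), listed at 0 in both libraries, followed by AT4G16195 (52.3%), which was 6.91-fold higher in myb98 ovules. The closest relative of AT5G04047 is AT4G10895 (58.6%), also listed at 0 in both. The 4 genes are therefore not a branch of the family by protein sequence, apart from the pair.

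Transcripts of the pair were 75.2% identical over 471 aligned bases, and AT3G57840 and AT3G57850 were 86.7% identical over 210. AT5G04047 matched the pseudogene AT2G27936 (0.205 FPKM and listed at 0) at 79.6% over 339 bases. The closest transcript to AT3G17080 was that of AT3G16970, at 73.3% over 322 bases. The sources used here do not say how reads that map to several genes were treated, so sharing of reads between AT3G57840 and AT3G57850 was not tested.

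**Figure D4:**
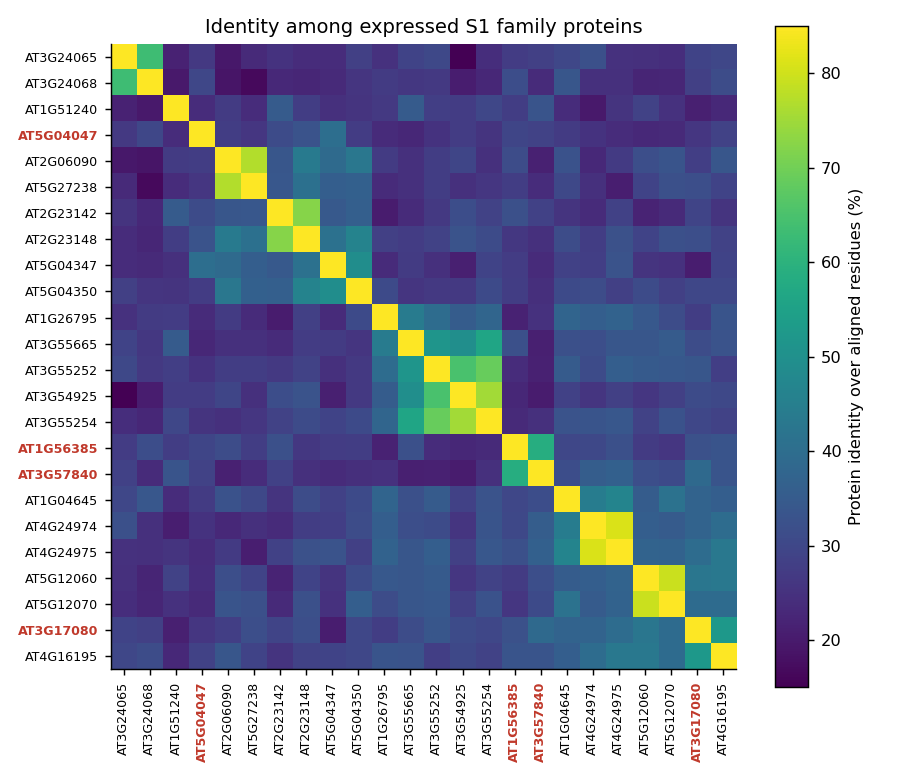
Protein identity (percent, colour) between the 24 expressed S1 family members, ordered by average linkage, with the 4 homologs named in red. AT1G56385 and AT3G57840 form a block at 58.7%, and AT5G04047 and AT3G17080 stand apart from it. Identity is over the aligned residues, which are few in some pairs.

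Of the genes around the 4 homologs, 1 was also called lower. Within 20000 nt on either side lay 62 annotated genes, 36 of them expressed, of which 1 was called lower and 0 higher. Over all expressed genes 0.712% were called lower and 0.282% higher, so nothing is read from this count. The gene called lower was AT3G57850, which starts 1090 nt after the end of AT3G57840 on the same strand at 21424377 to 21424821. Between them the annotation places AT3G09015, an RNA gene on the other strand that was not analysed here. AT3G57850 had 10.3 FPKM in the wild-type and 0.935 FPKM in the myb98 library, 11.0-fold lower with a log2 ratio of -2.55 (about 81 and 7 fragments). The annotation calls the product of AT3G57850 uncharacterized, names AT3G57840 as its best match and lists synergid and embryo. Its predicted protein has 90 residues and 48.0% identity to AT3G57840 over 75 residues, and holds 0 cysteines.

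Downstream of AT3G57850, AT3G57854 (21425479 to 21425926), is a transcribed pseudogene of the same kind. Its transcript matched that of AT3G57840 at 78.9% over 465 bases, and its upstream stretch matched at 91.8% over 183. Its level was 0.146 FPKM in wild-type and 0.338 FPKM in myb98 ovules. Whether the upstream stretch bears on the level of any of these genes was not tested.

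The nearest genes on the other sides did not pass the rule. AT3G57830, a receptor-like kinase gene 221 nt before AT3G57840, had 1.68 and 1.49 FPKM. AT3G17070 and AT3G17090, a peroxidase and a protein phosphatase gene that flank AT3G17080, had 32.2 and 36.4 FPKM and 14.3 and 14.1 FPKM. AT5G04045, on one side of AT5G04047, had 1.26 and 4.39 FPKM and was 3.48-fold higher in myb98 ovules, with a log2 ratio of 1.25. AT5G04050, on the other side, had 2.34 and 1.2 FPKM and was 1.95-fold lower, with a log2 ratio of -0.6. AT1G56380 and AT1G56390, which flank AT1G56385, were listed at 0 in both libraries.

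**Figure D5:**
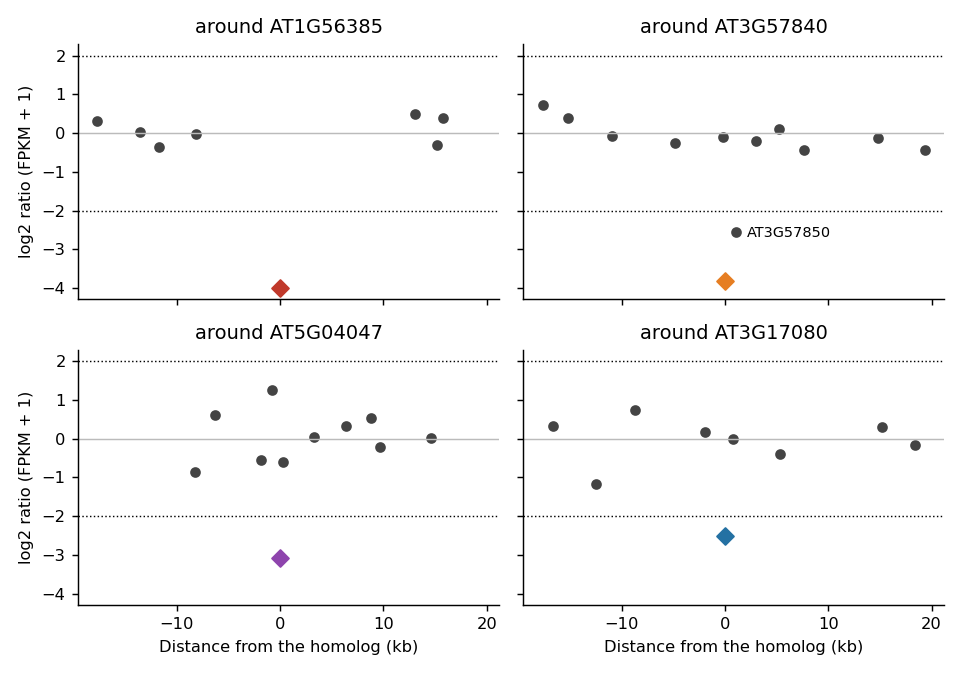
Log2 ratio of FPKM + 1 of the expressed genes within 20 kb of each homolog (dark points), against distance from it, with the homolog as a coloured diamond at 0 and the size rule of 2 as dotted lines. AT3G57850, at -2.55, is the only neighbour past the rule.

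Matches to TAAC on either strand numbered 6 in the stretch of AT1G56385, 7 in AT3G57840, 5 in AT5G04047 and 5 in AT3G17080. The median over the 27443 protein-coding genes was 2, and 85.9% of them held at least 1. At least 6 were found in 2.78% of these genes, at least 7 in 0.944% and at least 5 in 7.02%. GTAACNT, which contains TAAC, had 1 match in AT5G04047, starting 211 bases before the transcript, and AT3G17080 at 82 and 55 bases before it, and did not match AT1G56385 or AT3G57840. It was present in 9.99% of all protein-coding genes and in 6 of the other 20 expressed S1 genes (30%). For TAAC that group had 18 of 20 with a match and a median of 2.5. AT3G57850 held 6 matches to TAAC and 0 to GTAACNT. The pseudogene AT3G57854 held 8 matches to TAAC and 1 to GTAACNT, starting 111 bases before the transcript. The G and C content of the 4 stretches was 23.2% to 30.9%, against a median of 31.4% over all protein-coding genes, and the part of base composition in these counts was not tested. In GTTAAC, present in AT3G57840 and AT3G57854, both strands match and count separately. A match is a description of the letters and not a site.

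Synergid expression in the annotation note, which did not enter the choice of the 4 genes, is carried by 2 of them, AT3G57840 and AT3G17080, and by 0 of the other 62 S1 genes with values. The note names tissues for 6 of the 24 expressed members only, so its absence says little. Over the whole table, 42 genes carry synergid in the note and 18 of these were expressed. Leaving out the 2 homologs, 6 of 16 (37.5%) were called lower. Over all expressed genes 116 of 16303 (0.712%) were called lower. Among expressed genes whose note names other places only it was 29 of 10151 (0.286%). The 6 were AT1G47470 (64.9 and 0.422 FPKM), DD11 (70.2 and 0.956 FPKM), AT2G21655 (75.9 and 7.64 FPKM), AT4G20800 (7.62 and 0.0124 FPKM), AT3G57850 and the subtilase gene AT5G11940 (6.47 and 0.372 FPKM). The 1 called higher was AT3G55680 (1.84 and 10.5 FPKM). The sources used here do not say which experiments lie behind the notes, which may include work on MYB98 itself. The notes were taken up after the values were seen. Most of the 6 were under 1 FPKM in myb98 ovules and counted as expressed only through the wild-type library. Nothing is read from these counts.

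Levels of MYB98 and of cell type markers give the setting. MYB98 (AT4G18770) had 1.35 FPKM in wild-type and 0.474 FPKM in myb98 ovules, 35.1% of the former, and its exons overlap those of AT4G18780. Of the 7 LURE1 genes, which encode pollen tube attractants of the synergids, 5 were lower (median log2 ratio -6.68). Of 8 other synergid genes 3 were lower and 0 higher (median -0.57). Among those not called, the receptor kinase gene FER had 43.9 and 42.7 FPKM and ENODL13 had 16.2 and 34.9 FPKM (log2 ratio 1.06). Over all expressed genes 0.712% were called lower. Both lists were drawn up with earlier results of these data known, so nothing is read from their counts. The 5 egg cell markers summed to 222 and 259 FPKM, the 5 central cell markers to 48.2 and 58.9 FPKM and the 5 integument and ovule identity markers to 190 and 195 FPKM, with 0 called in each. Members within these sums went both ways. Among egg cell markers EC1.5 had 24.3 and 56.8 FPKM and EC1.1 had 68.9 and 62.6 FPKM. Among central cell markers DD22 had 35.5 and 51.3 FPKM and DME had 8.61 and 3.85 FPKM. AGL62, a marker of endosperm after fertilization, had 0.9 and 1.32 FPKM. Of 3 pollen and pollen tube markers 1 was at 0 in both libraries, and together they had 1.3 and 1.33 FPKM. Of 4 carpel and transmitting tract markers 1 was at 0 in both, and they summed to 51.8 and 38.0 FPKM, nearly all of it ALC.

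Genes outside the family with the pair of values nearest to each homolog, by Euclidean distance of log2(FPKM + 1) over the 2 libraries, were of mixed kind. For AT1G56385 these were the chaperone gene HSP70 (63.6 and 6.21 FPKM, distance 0.60) and AT2G21655, a DUF784 gene (distance 0.63). The clock gene LHY (23.0 and 0.977 FPKM, 0.37) and the uncharacterized AT3G12320 (18.5 and 1.52 FPKM, 0.68) were nearest to AT3G57840. Nearest to AT5G04047 were the light-harvesting gene LHCB2.1 (44.5 and 4.07 FPKM, 0.20) and the DUF784 gene AT3G01185 (43.9 and 5.64 FPKM, 0.23). AT5G51440, a small heat shock protein gene (5.92 and 0.387 FPKM, 0.21), and AT5G11940 (0.23) were nearest to AT3G17080. These 8 genes were picked for their likeness in value, so the likeness is no result.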

How the data were processed

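The authors deposited 1 table with 1 column per library, whose header does not name the unit. The deposited values are taken as FPKM because they are not whole numbers, the value of 1 fragment falls with transcript length, and Cuffdiff, which writes FPKM, is among the tools named. The table has 35548 identifiers, of which 1991 are blank in both libraries. Per the submitters' processing notes, the tools were TopHat2 (version 2.0.14) and Cuffdiff (version 2.2.1), with TAIR10 as the genome. The sources used here do not give strandedness, annotation version or scaling. FPKM are relative within a library, and an exact 0 can be a failed estimate. The lowest values of genes with 1 transcript put the depth at about 47400000 (wild-type) and 41900000 (myb98) fragments. For each homolog, the value of 1 fragment was read in the same way from genes within 100 nt of its length.

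Gene models and sequences are those of RefSeq TAIR10.1, whose names matched 32810 identifiers. The S1 family was found by product name, leaving out a gene named as linked to the S3 locus. Proteins, translated from the coding models, were aligned with Biopython 1.88 (BLOSUM62) and transcripts with BLAST 2.17.0 (E-value limit 1e-05). Upstream stretches were aligned locally. The length comparison used a running median over 203 genes that reached 5 FPKM in at least 1 library. The calculations were tested on simulated data, with changes placed only in genes of higher mean level than AT3G17080. The simulation had no variation between libraries beyond that of counting. Named genes were the 4 homologs, MYB98, the 4 other family members highest in wild-type ovules, the 4 with the largest ratio above 0, all expressed members below 0, nearest relatives, flanking genes and the 2 genes of nearest pattern. Members and lists were chosen with earlier results of these data known, and AT1G26795, AT3G57854 and the synergid notes after their values were seen.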

Additional observations from a re-analysis of the deposited data

How the results depend on the processing

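With a pseudocount of 5, AT3G17080 was at -1.06 and no longer past the rule, as its construction brings for a gene of 5.83 FPKM, and 60 genes were lower and 13 higher over the whole table. At a pseudocount of 0.1 these were 189 and 147, with 1 S1 member higher. The log2 ratios of AT1G56385, AT3G57840 and AT5G04047 kept their sign and their side of the rule at both pseudocounts, after rescaling and against genes of like length. Requiring at least 1 FPKM in both libraries left 52 genes lower and 21 higher, and 3 S1 members lower, since AT3G17080 dropped out. Against genes of like length 26 were higher. At a rule of 1, 447 genes were lower, among them 4 S1 members, and 481 were higher, among them 9 S1 members. Without a filter on low values 37 S1 members entered, with a median of 0.30, because most of those added lie near 0. The family defined by protein similarity to 1 of the 4, which holds the 4 by construction, gave 5 lower of 22, the added gene being AT3G57850. Words in the notes as well, an alternative chosen after seeing the data, gave 4 lower of 31. No paired analysis was possible because each genotype has 1 library. Depth limits AT3G17080 most, at about 4 fragments in the myb98 library.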
